A study of Mus musculus with 6 samples.

Results

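The cells described here are the white blood cells, mainly macrophage-like cells, captured in libraries labelled as gonads of XX mouse embryos. They were chosen by measured values: a cell barcode was taken when it held at least 500 genes, at most 10% of its unique molecular identifiers (UMIs, each standing for 1 captured transcript) from mitochondrial genes, and at least 1 UMI in 3 or more of 7 leukocyte genes. Those genes are Tyrobp and Fcer1g, the adaptor chains that carry the signal of many myeloid receptors; C1qa, C1qb and C1qc, the chains of the complement protein C1q; Csf1r, the receptor for colony-stimulating factor 1; and Ptprc, the pan-leukocyte surface phosphatase CD45. In total 88 barcodes met the rule, out of 20934 kept barcodes from 5 libraries of embryonic gonads and 28453 kept barcodes in the whole study. Their number was 16 for E10.5, 23 for E11.5, 11 for E12.5, 20 for E13.5 and 18 for E14.5.

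Macrophages reach embryonic organs before the bone marrow exists, first from the yolk sac and then through the fetal liver, and live on in the tissue with signals through Csf1r. In the fetal gonad they lie near vessels and germ cells, take up dying cells and take part in the remodelling of the vasculature. C1q marks apoptotic cells and debris for uptake, the receptors of the Fc family bind antibody-coated particles, and lysosomal cathepsins break down what has been engulfed.

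The study measured single-cell transcriptomes of XX gonads of the ICR mouse strain at E10.5, E11.5, E12.5, E13.5 and E14.5, with 1 library a stage, and of gonad-like somatic cells made from embryonic stem cells of a 129svj x C57BL/6J background at induction day 6. All were dissociated for 30 minutes with papain, a plant protease, and run on the droplet-based Chromium system, which reads the 3′ end of transcripts. The labels name no sorting step and no number of embryos in a library. With 1 library a stage, differences between stages have no replicate check, no test was made, and stage, litter and library cannot be told apart.

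The libraries held between 37606947 and 52146419 UMIs. The leukocytes had a median depth of 13344 UMIs for E10.5, 13399 for E11.5, 10528 for E12.5, 6751 for E13.5 and 5364 for E14.5, and together they held 987094 UMIs. E13.5 and E14.5 shared 114 barcodes, against 17 to 72 for every other pair of libraries; the shared barcodes that passed the filters, 94 at E13.5 and 74 at E14.5, were left out as the rule asks, and 0 of them met the 7-gene rule. Haemoglobin made up at most 0.0518% of the leukocytes' UMIs at any stage, against 0.422% to 2.28% in the other kept barcodes.

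The 3 C1q genes lie side by side on mouse chromosome 4 (GRCm38), on the minus strand: C1qb at 136880129 to 136886187, C1qc at 136889804 to 136893065 and C1qa at 136895917 to 136898803. The 200 bases before the start of 5 genes are printed because UMIs of these genes set the leukocytes apart: C1qb and Fcer1g of the rule, and 3 further genes with at most 22 UMIs in all other kept barcodes. The sequences and starts are those of the RefSeq promoter table (GRCm38.p6); GENCODE places the Fcer1g start a few bases further out. They are written 5′ to 3′ in the direction of the gene, and the capitals mark GAGGAA or its reverse complement TTCCTC, the core bound by PU.1, the factor encoded by Spi1.
C1qb, chr4:136886201-136886400, minus strand: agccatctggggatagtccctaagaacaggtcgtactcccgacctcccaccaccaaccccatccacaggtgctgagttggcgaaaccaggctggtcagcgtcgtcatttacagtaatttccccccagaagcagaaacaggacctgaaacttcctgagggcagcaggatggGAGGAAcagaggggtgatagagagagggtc
Fcer1g, chr1:171234350-171234549, minus strand: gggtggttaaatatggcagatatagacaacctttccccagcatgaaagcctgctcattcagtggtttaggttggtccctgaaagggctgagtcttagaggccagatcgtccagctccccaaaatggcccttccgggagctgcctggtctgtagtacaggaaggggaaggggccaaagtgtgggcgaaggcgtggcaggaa
Trem2, chr17:48346201-48346400, plus strand: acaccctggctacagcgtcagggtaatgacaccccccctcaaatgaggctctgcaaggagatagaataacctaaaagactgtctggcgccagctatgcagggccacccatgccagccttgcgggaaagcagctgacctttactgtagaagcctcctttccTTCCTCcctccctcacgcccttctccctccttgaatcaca
Fcgr1, chr3:96293970-96294169, minus strand: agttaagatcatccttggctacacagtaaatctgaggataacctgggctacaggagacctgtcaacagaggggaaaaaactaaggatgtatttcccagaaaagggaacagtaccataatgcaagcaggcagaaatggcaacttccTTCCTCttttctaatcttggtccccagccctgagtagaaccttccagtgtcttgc
Ctss, chr3:95526586-95526785, plus strand: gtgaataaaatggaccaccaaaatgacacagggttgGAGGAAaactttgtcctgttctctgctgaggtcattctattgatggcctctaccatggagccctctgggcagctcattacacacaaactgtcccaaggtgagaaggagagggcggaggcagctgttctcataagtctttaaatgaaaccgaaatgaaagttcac
The core stood in 4 of these 5 windows, and Fcer1g had none. In C1qb it started 30 bases before the start, in Trem2 40 bases, in Fcgr1 55 bases and in Ctss 164 bases before it. Of the 7 rule genes, 4 had an entry and 3 of these held the core in a window; of the 15 genes outside the rule with the largest excess in leukocytes, described below, 11 had an entry and 7 held it. Both strands were searched, and 19% of all 32851 promoter windows of that length in the table hold the core. A gene was counted when any of its windows held the core. The counts of genes and this share of windows are thus unlike measures. A match of letters is a description and not evidence of binding.

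Among the kept barcodes of the gonad, 20463 had none of the 7 genes, 367 had 1, 16 had 2, 8 had 3, 8 had 4, 12 had 5, 24 had 6 and 36 had all 7. The 8 barcodes just inside the rule held 3 to 27 UMIs of these genes (median 5) and the 16 just outside it held 2 to 17 (median 5), so barcodes on either side of the edge differ little. Tyrobp was found in 83 of the 88 leukocytes and Fcer1g in 84, while Ptprc, the lowest of the 7, was found in 50. In the other 20846 kept barcodes, at a median depth of 8398 UMIs against 9509 in the leukocytes, each of the 7 was found in 0.0192% to 0.686%. Fcer1g was more frequent in endothelial barcodes, 24 of 517 of which held it (4.64%, exact 95% interval 3.00% to 6.83%), at a median depth of 14772 UMIs. Since these genes chose the cells, their levels are given as a description. In stage order Tyrobp stood at 794, 1119, 1909.8, 1522 and 2521 CPM (UMIs of a gene over all cells of a group, scaled by the total of the group). Csf1r stood at 184, 367, 548, 285 and 450.5 CPM, and Ptprc at 98.7, 94.4, 94.2, 63.9 and 47.9 CPM. Tyrobp was thus lowest at E10.5, and Ptprc lowest at E14.5.

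By share, leukocytes were 0.256% of kept barcodes for E10.5 (exact 95% binomial interval 0.146% to 0.415%), 0.846% for E11.5 (0.537% to 1.27%), 0.339% for E12.5 (0.169% to 0.605%), 0.447% for E13.5 (0.273% to 0.690%) and 0.425% for E14.5 (0.252% to 0.671%). The E11.5 interval lies above the E10.5 interval and overlaps the intervals of E12.5, E13.5 and E14.5. All intervals here and below cover counting error only. In the stem cell-derived library 0 of 7519 kept barcodes met the rule, which allows up to 0.0399% of barcodes meeting it.

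Macrophage identity was checked with markers that the rule did not use. Of the 88 leukocytes, 79 held at least 3 of 14 macrophage markers, against 0.125% of the other kept barcodes. These 79 were 13 of 16 for E10.5, 22 of 23 for E11.5, 10 of 11 for E12.5, 19 of 20 for E13.5 and 15 of 18 for E14.5. The 9 that did not hold 3 had 1052 to 20890 UMIs. Fcgr1, the high-affinity receptor for immunoglobulin G, stood at 184 CPM for E10.5, 361 for E11.5, 599.5 for E12.5, 232 for E13.5 and 335 for E14.5, against 0.0420 CPM in the other kept barcodes. Cx3cr1, the fractalkine receptor, had levels of 206, 356, 522, 470 and 585 CPM in that order of stages, against 0.182 CPM in the others. Spi1, the master regulator of myeloid cells, stood at 336, 340, 351, 319 and 355 CPM in the sums over all leukocytes of each stage. The sums of all genes in this paragraph include leukocyte barcodes with markers of another cell type, described below. Their share of the leukocyte UMIs differed between stages. Values of Spi1 without them are not given here, so an even level per cell cannot be read from these sums. Adgre1, which encodes the macrophage antigen F4/80, was nearly absent at E10.5, with 4.48 CPM from 1 cell, and stood at 105, 128, 116 and 230 CPM from E11.5 on.

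Other leukocyte types were few. At least 3 markers were held by 7 barcodes for monocytes, 5 for haematopoietic progenitors, 3 for megakaryocytes, 2 for lymphocytes, 1 for mast cells and basophils, 1 for dendritic cells, 0 for granulocytes and 0 for natural killer and innate lymphoid cells. The monocyte list was held by 3.73% of the other kept barcodes too. Microglia markers were held by 62 leukocytes and resident macrophage markers by 61. Within these lists Sall1, which separates microglia from other macrophages, had 0 UMIs, as had Cbr2, and Cd163 had 1 UMI. Tmem119, another microglial gene, had 11 UMIs over all leukocytes. Among the microglia genes, Cx3cr1, Trem2 and Fcrls were at least 4-fold higher in leukocytes than in the other kept barcodes.

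**Figure D1:**
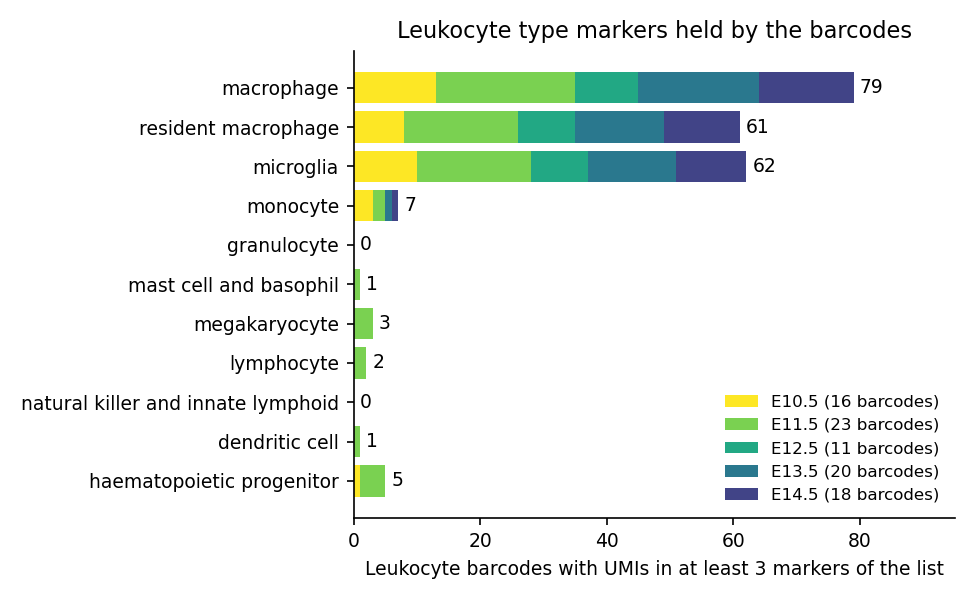
Number of leukocyte barcodes (x axis) with UMIs in at least 3 markers of each leukocyte type list (y axis), stacked by stage in colours, with the total at the end of each bar. The macrophage, microglia and resident macrophage lists reach 79, 62 and 61 of 88, and every other list reaches 7 or fewer.

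Across all genes, 245 of the 3197 genes with at least 50 CPM in either sum were at least 4-fold higher in leukocytes than in the other kept barcodes (7.66%), and 104 were at least 4-fold lower (3.25%). The 7 rule genes are among these by construction. Leaving them out, the 15 named genes with the largest excess and at least 10 UMIs were Clec4a2, Ms4a7, Ccl3, Fcgr1, Cybb, Cd300c2, Fcrls, Ighm, Ms4a6b, Ctss, Ccl24, Ccl4, Ccl12, Trem2 and Ms4a6d. Of these, 14 were higher in all 5 libraries, and Cd300c2 was higher in 4 and had 0 UMIs in leukocytes at E10.5. Clec4a2, a C-type lectin receptor, had 123 CPM in leukocytes and 0.00467 CPM, or 1 UMI, in the others. Cybb, the catalytic subunit of the phagocyte NADPH oxidase, had 88.1 CPM in leukocytes and 0.0140 CPM in the others. Trem2, a lipid receptor that signals through Tyrobp, had 158 CPM in leukocytes and 0.0420 CPM in the others. Reads of the near-identical Ms4a6 and Ccl family members may be split between copies, so single values within those families are uncertain. Ighm, the immunoglobulin mu constant gene, had 251 UMIs in leukocytes and 11 in the others. It was found in 70 of 88 cells, and stood at 175, 321, 368, 180 and 182 CPM over the 5 stages in order. The lymphocyte list, which includes the B-cell genes Cd79a and Cd79b, was held by 2 barcodes.

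The 5 genes furthest below the other kept barcodes were Actc1, Crabp2, Mfap4, Crabp1 and Stra8. Actc1, a cardiac actin gene, had 1 UMI in leukocytes and 51.5 CPM in the others, most of that at E10.5, and its log2 ratio was -5.67. Without the E10.5 library leukocytes had 0 UMIs of Actc1, and the ratio against a floor of 3 counts was 0.29, so a difference could not be read there. In the others Actc1 stood at 228, 2.46, 4.25, 2.76 and 3.54 CPM in stage order. The supporting lineage markers of the others stood at 130 CPM at E10.5 and 1050 CPM at E11.5. The other cells of the E10.5 library thus differed from those of later stages. How far this bears on the E10.5 leukocyte values was not tested. Crabp2, Crabp1, Mfap4 and Stra8 had 2, 3, 2 and 3 UMIs in the leukocytes, against 71.0, 89.1, 67.6 and 81.6 CPM in the others. In 0 of the 5 libraries was any of these 4 higher in leukocytes.

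The counts by gene list below are over genes with at least 50 CPM in either sum. A gene low in the other cells passes that minimum only where it is high in leukocytes, so the counts are descriptions, to be read against the 7.66% over all genes, and genes under the minimum were not compared. Of 18 lysosomal genes 17 reached 50 CPM in either sum, and 11 of these were at least 4-fold higher in leukocytes, against 7.66% of all genes, among them Ctsb, Ctsd, Ctss, Ctsz and Ctsc, which encode cathepsins, and Lgmn, which encodes legumain. The lysosomal list together made up 3664, 8516, 11014, 7295 and 13859 CPM of the leukocytes from the earliest stage to the latest, against 1331, 1920, 1598, 1159 and 1174 CPM of the others. The median log2 ratio of leukocytes over the others was 2.87 for the lysosomal genes, against -0.11 over all 3197 genes. Ctsd, the aspartic protease cathepsin D, had UMIs in 87 of 88 leukocytes and stood at 193, 812, 805, 865 and 2569 CPM. Of 14 Fc receptor and signalling genes, 5 reached 50 CPM (Fcgr1, Fcgr3, Trem2, Lyn and Sirpa), all of them in leukocytes, so their direction was set by that minimum. Of 14 genes for uptake of apoptotic cells 5 reached 50 CPM, and 2 of these were at least 4-fold higher: Stab1, a scavenger receptor, and Cd36, a fatty acid and oxidised lipid receptor. Mertk, an uptake receptor of macrophages, had 14 UMIs in all leukocytes and 0 at E10.5. Axl, its relative, had 0 UMIs at E10.5 and stood at 10.8, 60.0, 163 and 173 CPM in the 4 stages after it, in 3, 5, 14 and 6 cells; in the other kept barcodes it stood at 45.4 CPM.

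Complement genes other than C1q were sparse. C3ar1 and Cfp, the receptor for the C3a fragment and properdin, were at least 4-fold higher in leukocytes, with 182 and 60 UMIs. The classical pathway proteases C1ra and C1s1 and the components C3 and C4b had 0 UMIs in the leukocytes, and stood at 0.891, 0.499, 0.714 and 0.252 CPM in the others. With 987094 leukocyte UMIs, a count of 0 allows up to 3 UMIs, a level above that of each of these 4 genes in the other cells, so a difference was not detectable at this depth.

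The list of 21 chemokine and cytokine genes stood at 2360.5 CPM in leukocytes and 103 CPM in the other kept barcodes. With 10 of the 21 at 50 CPM or more in either sum, 9 were at least 4-fold higher in leukocytes. Ccl3, which draws monocytes and macrophages, stood at 529, 321, 728, 470 and 949 CPM in stage order, and Ccl4 at 484, 132, 779, 935 and 1016 CPM. In the other kept barcodes they stood at 0.0607 and 0.121 CPM. Il1b and Tnf were low, with 47 and 25 UMIs, and Il10 had 0. The list of immediate early and heat shock genes, which respond to handling during dissociation, was higher at E13.5 and E14.5 than at the earlier stages in leukocytes and in the other cells. It stood at 1641, 2171, 3040, 4072 and 4207 CPM in leukocytes, against 1602, 1515, 1857, 2399 and 4295 CPM in the others. Its part in the chemokine levels was not tested. Csf1 and Il34, the ligands of Csf1r, had 1 UMI each in the leukocytes and 1.05 and 1.32 CPM in the others.

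B2m, the light chain of class I molecules, stood at 937, 1302, 1336, 1051 and 1342 CPM in leukocytes, against 131 CPM in the others. Of 13 antigen presentation genes 5 reached 50 CPM, and 4 of these were at least 4-fold higher (B2m, H2-D1, Psmb8 and the class II chaperone gene Cd74). The class II genes H2-Ab1, H2-Aa and H2-Eb1 had 6, 2 and 2 UMIs in all leukocytes, and their activator Ciita had 0. H2-Ab1 stood at 6.08 CPM in the leukocytes and 10.48 CPM in the other kept barcodes.

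Of 15 myeloid transcription factor genes 9 reached 50 CPM, and 7 of these were at least 4-fold higher in leukocytes: Spi1, Maf, Cebpb, Irf8, Irf5, Zeb2 and Mef2c. Irf8, which steers monocyte and macrophage differentiation, stood at 224, 129, 120, 75.5 and 115 CPM across the stages. Maf, linked to resident macrophages, stood at 144, 183, 351, 296 and 364 CPM. Of 14 iron and haem genes 10 reached 50 CPM, and 6 of these were at least 4-fold higher in leukocytes (Hmox1, Slc40a1, Slc11a1, Ftl1, Slc48a1 and Trf). Ftl1 and Fth1, the ferritin chains that store iron, had 15486 and 6103 UMIs. Ftl1 made up 7933, 12509, 16264, 18930 and 37570 CPM of the leukocytes by stage, against 3236 CPM of the others. Hmox1, the haem-degrading enzyme, and Slc40a1, the iron exporter ferroportin, had 168 and 166 UMIs. Ferritin has many processed pseudogene copies, so its counts are uncertain.

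Within the leukocytes, C1q split the cells by stage. Per barcode, the 3 C1q genes together ranged over 0 to 5778 CPM for E10.5 (median 570), 0 to 11011 for E11.5 (median 4221), 245 to 18717 for E12.5 (median 7641), 118 to 22879 for E13.5 (median 5715) and 0 to 20386 for E14.5 (median 6545). No C1q UMI was found in 5 leukocytes for E10.5, 3 for E11.5, 0 for E12.5, 0 for E13.5 and 1 for E14.5. Cells with UMIs in fewer than 2 of the 3 genes are called C1q-low here and the rest C1q-holding, a division made after the values were seen. The C1q-low cells were 8, 4, 0, 1 and 2 from the first stage to the last (15 in all), and the C1q-holding cells 8, 19, 11, 19 and 16 (73 in all). At E10.5 the C1q-low cells were the deeper ones, with a median of 16121 UMIs against 11108 in C1q-holding cells. With fewer than 2 C1q genes, they had to show more of the other rule genes to enter, which depth makes easier. How far the rule sets this difference in depth was not tested. At E11.5 and E14.5, 1 C1q-low barcode each, with 1167 and 1097 UMIs, was shallow and held UMIs of 1 C1q gene.

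**Figure D2:**
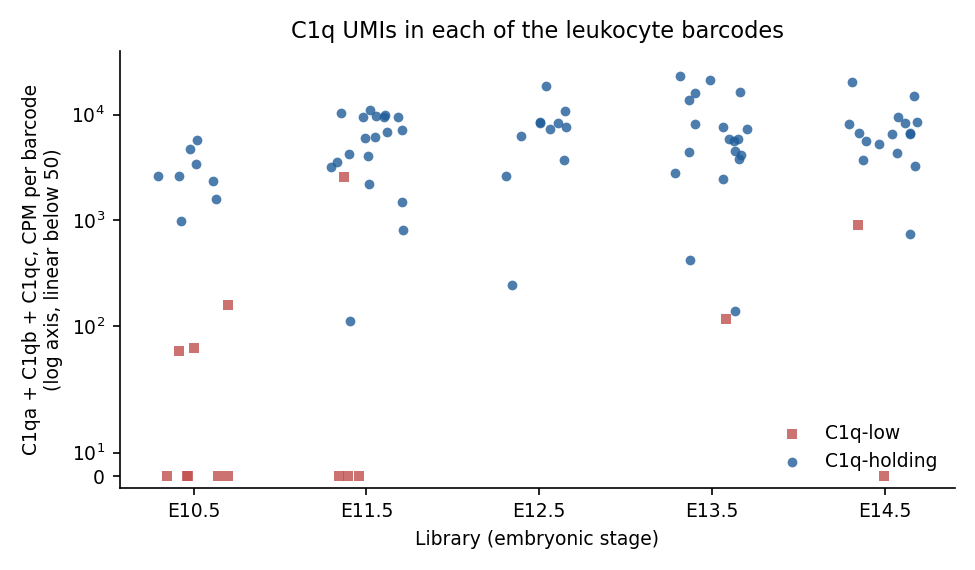
Summed CPM of C1qa, C1qb and C1qc in each leukocyte barcode (y axis, log scale, linear below 50) by library (x axis), with C1q-low barcodes as red squares and C1q-holding barcodes as blue circles. At E10.5 the median is 570 CPM and 5 of 16 barcodes are at 0, while at E12.5 and E13.5 no barcode is at 0.

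At E10.5, where both kinds numbered 8, C1q-low cells held more transcripts of the granule protein genes Mpo and Prtn3. The other 10 of the 12 granulocyte markers had 0 UMIs at that stage. C1q-holding cells held more transcripts of resident macrophage genes. Of 3130 genes with at least 50 CPM in either sum, 89 were at least 4-fold higher in C1q-low cells (2.84%) and 89 at least 4-fold lower (2.84%), as a description of 8 barcodes on each side. Mpo, the peroxidase of granulocyte precursors, had 48 UMIs in C1q-low cells and 1 in C1q-holding cells, with UMIs in 4 of 8 and 1 of 8 barcodes (40.4-fold, counting interval 6.91 to 1629). The 4 C1q-low barcodes held 20, 1, 11 and 16 Mpo UMIs. Prtn3, a granule protease gene, had 70 UMIs in C1q-low cells and 8 in C1q-holding cells. Plac8 had 115 UMIs in C1q-low cells and 20 in C1q-holding cells, and was found in all 8 of the C1q-low barcodes and 5 of the C1q-holding ones. Such counts of barcodes are at unequal depth, since the C1q-low ones were deeper. Hp, the haptoglobin gene, had 20 UMIs over 6 C1q-low cells and 0 in C1q-holding cells. S100a6, of the same monocyte list as Plac8 and Hp, went the other way, with 1 UMI in C1q-low cells and 19 in C1q-holding cells.

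On the other side, Dab2, an endocytic adaptor, had 4 UMIs in C1q-low cells and 92 in C1q-holding cells. Fcgr3, a low-affinity Fc receptor, had 1 UMI in C1q-low cells and 32 in C1q-holding cells. Apoe, the lipid carrier that macrophages secrete, had 8 UMIs in C1q-low cells and 97 in C1q-holding cells. Mrc1, the mannose receptor, had 0 UMIs in C1q-low cells and 25 in C1q-holding cells, and Pf4 had 0 and 14 UMIs. Resident macrophage markers as a list gave 5 genes at least 4-fold lower in C1q-low cells out of 7 with enough signal (Mrc1, Lyve1, F13a1, Dab2 and Pf4). A gene low in either kind of cell passes the 50 CPM minimum only where the other kind is high. The counts by list in this comparison are descriptions, to be read against the 2.84% over all genes. Of the macrophage list 10 genes had enough signal, of which 4 were at least 4-fold lower in C1q-low cells (Mrc1, Cd68, Aif1 and Fcgr3) and 0 higher, with a median log2 ratio of -1.40. Spi1 had 47 UMIs in C1q-low cells and 28 in C1q-holding cells. Csf1r had 24 and 17 UMIs, but it is a gene of the rule, and C1q-low cells could enter only through it and the other rule genes outside C1q. Of 18 G2/M genes with enough signal, 1 was at least 4-fold higher in C1q-low cells (Aurkb) and 0 lower.

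**Figure D3:**
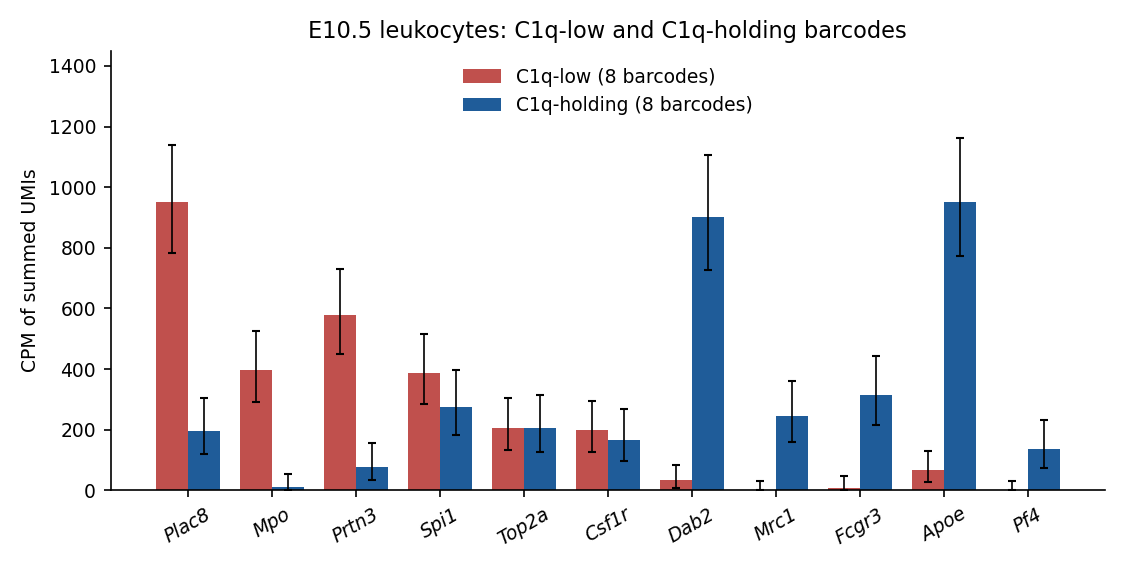
CPM of summed UMIs (y axis) of 11 genes in the C1q-low (red, left) and C1q-holding (blue, right) leukocytes of the E10.5 library, 8 barcodes each, with exact 95% Poisson intervals as bars. Plac8, Mpo and Prtn3 are higher in the C1q-low cells, and Dab2, Mrc1, Fcgr3, Apoe and Pf4 in the C1q-holding cells, while the intervals of Spi1, Top2a and Csf1r overlap.

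At later stages 7 cells were C1q-low. At E11.5 a barcode with 17843 UMIs held 11 Mpo, 44 Plac8, 7 Ccr2 and 68 Lyz2 UMIs, where Ccr2 is the receptor by which monocytes leave the bone marrow and Lyz2 encodes lysozyme. A pair of E11.5 barcodes, with 20890 and 30568 UMIs, each held 6 of 14 lymphocyte markers. Both also held 3 of 10 haematopoietic progenitor markers, with 5 Cd34 UMIs each, and 15 and 23 Plac8 UMIs. They carried 18 and 35 UMIs of Trbc2, a constant gene of the T-cell receptor beta chain, and 8 and 4 UMIs of Flt3, a receptor of lymphoid and dendritic progenitors. The deeper of the pair also held 5 of 11 dendritic cell markers. No other leukocyte held Trbc2. The C1q-low barcode of E13.5, with 8486 UMIs, held 1 UMI in each of 3 rule genes and 7 supporting and 6 stromal markers, and is among the 15 barcodes with markers of another cell type described below. At E14.5 a barcode with 7914 UMIs held 14 S100a8, 4 Ccr2, 3 Ly6c2 and 76 Lyz2 UMIs, the first being a granulocyte and monocyte alarmin gene and Ly6c2 a marker of classical monocytes.

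Stage differences were read from E11.5 to E13.5, the only stages with at least 20 leukocytes. Of 3220 genes with at least 50 CPM in either sum, 109 were at least 4-fold higher at E13.5 than at E11.5 (3.39%) and 178 at least 4-fold lower (5.53%), with a median log2 ratio of -0.34 over all 3220. Some leukocyte barcodes also held markers of another cell type. At least 3 markers of endothelium, germ cells, supporting cells, stroma or coelomic epithelium were held by 1, 3, 4, 5 and 2 leukocytes stage by stage, 15 in all. These 15 had a median of 14304 UMIs and a median C1q level of 1490 CPM, against 9161 UMIs and 5651 CPM in the other 73. They made up 31.9% of leukocyte UMIs at E11.5, 54.0% at E12.5 and 47.7% at E13.5. A single E13.5 barcode with 49723 UMIs was 28.9% of its stage and held 9 supporting, 8 stromal and 8 germ cell markers; a single E11.5 barcode with 62624 UMIs was 16.9% of its stage and held 10 endothelial and 8 germ cell markers. Doublets were not removed in the values given first, and values without the 15 are given below for several genes. Without them 111 of 3127 genes were at least 4-fold higher at E13.5 (3.55%) and 197 at least 4-fold lower (6.3%). Their part in the stage levels of gene lists was not tested.

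**Figure D4:**
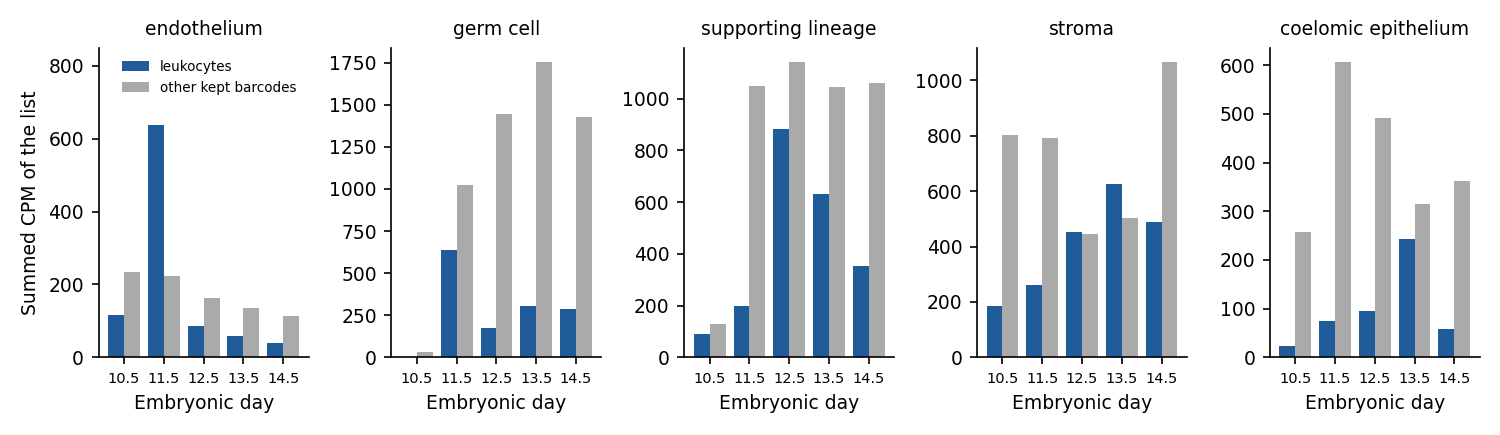
Summed CPM (y axis) of 5 marker lists of other gonadal cell types by embryonic day (x axis), in leukocytes (blue, left) and in the other kept barcodes (grey, right). In leukocytes the endothelial list peaks at 639 CPM at E11.5 and the supporting lineage list at 882 CPM at E12.5. The stroma list includes Maf, which was at least 4-fold higher in leukocytes than in the other kept barcodes.

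Genes of gonadal somatic cells were among those furthest apart. Fst, the gene of follistatin in supporting cells, had 20 UMIs at E13.5 and 1 at E11.5 in all leukocytes, and 1 and 0 without the 15. Fst is on the supporting lineage list that helped choose the 15, so its fall without them was in part set by that choice. Gng13 had 40 UMIs at E13.5 and 0 at E11.5, and 1 and 0 without the 15. The supporting lineage list stood at 633 CPM at E13.5 and 200 CPM at E11.5, and the stroma list at 627 and 262 CPM. The stroma list includes Maf, which was at least 4-fold higher in leukocytes than in the other kept barcodes. The stroma sum is thus not of stromal transcripts alone. Cd34, of endothelium and progenitors, had 1 UMI at E13.5 and 48 at E11.5, and 1 and 13 without the 15, which is still 4.64-fold lower but with a counting interval of 0.696 to 197.

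Among the 240 genes tested that were also at least 4-fold higher in leukocytes than in the other kept barcodes, 5 were at least 4-fold higher at E13.5 (2.08%) and 9 at least 4-fold lower (3.75%). The 5 were Spp1, Mt2, Ccl4, Cxcl2 and Mt1. Spp1, the gene of osteopontin, stood at 221 CPM at E13.5 and 5.39 CPM at E11.5, from 38 and 2 UMIs (40.9-fold, counting interval 10.6 to 350), and at 389 and 3.96 CPM without the 15. It was found in 6 of 20 cells at E13.5, where 1 cell held 21 of the 38 UMIs, and it was again high at E14.5 with 249 CPM. Mt1 and Mt2, the metallothioneins that bind zinc and copper, stood at 2248 and 529 CPM at E13.5, against 493 and 56.6 CPM at E11.5. Both also stood higher in the other kept barcodes at E13.5, with 245 and 82.2 CPM, against 90.2 and 43.6 CPM at E11.5. Ccl4 was 7.08-fold higher at E13.5 (5.11 to 9.95), and Cxcl2 6.03-fold (2.84 to 13.9). Of the 161 Ccl4 UMIs at E13.5, 1 cell held 71. Without the 15, Mt1 was 6.31-fold, Mt2 14.4-fold, Ccl4 8.70-fold and Cxcl2 7.85-fold higher at E13.5.

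Trf, the gene of the iron carrier transferrin, came close to that threshold with 13.45, 148, 368, 470 and 613 CPM by stage. Without the 15 it stood at 15.5, 202, 577, 866 and 534 CPM, so the rank of E14.5 rests on them. Its E13.5 level was 3.17-fold that of E11.5 (2.22 to 4.55), and 4.29-fold without the 15. Apoe stood at 471 CPM at E10.5 and at 8270.4, 10791, 8254 and 13475 CPM after it, so its widest gap lay between E10.5 and E11.5. Without the 15 Apoe stood at 444, 11752, 15241, 12932 and 14117 CPM by stage. Within C1q-holding cells only, Apoe stood at 952 CPM at E10.5. Lyz2 stood at 166, 801, 394, 1237 and 2894 CPM, and at 165, 1176, 558, 2276 and 2355 CPM without the 15. Ms4a7 stood at 4.48, 86.3, 206, 134 and 403 CPM, and at 5.16, 119, 354, 233 and 418 CPM without the 15. Mt1 and Lyz2 had their highest levels at E14.5 in all leukocytes. Single barcodes weighed on Lyz2: at E14.5, 1 of the 15 held 99 UMIs and 1 C1q-low barcode held 76. At E13.5, 1 barcode outside the 15 held 94.

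The genes lower at E13.5 were in part those of the C1q-low cells. Plac8 had 3 UMIs at E13.5 and 87 at E11.5, of which C1q-holding cells held 1 and 5. Trbc2 had 0 UMIs at E13.5 and 53 at E11.5, all in the 2 barcodes with lymphocyte markers, which makes it at least 8.20-fold lower against a floor of 3 counts over the E13.5 sum. Emb stood at 46.5 CPM at E13.5 and 213 at E11.5, and had been at 520 CPM at E10.5. Mrc1 stood at 69.7 CPM at E13.5 and 305 CPM at E11.5 (4.37-fold lower, 2.41 to 8.71), and at 122 and 439 CPM without the 15. At E14.5 Mrc1 stood at 297 CPM. Lyve1, a hyaluronan receptor of resident macrophages, had 0 UMIs at E13.5 and stood at 249 CPM at E14.5 from 2 cells. Without the 15 barcodes Mrc1, Tspo, Pnp and Emb were 3.60-fold, 3.31-fold, 3.83-fold and 2.897-fold lower at E13.5, each under the 4-fold threshold. In all leukocytes Ifi202b, Tspo and Pnp stood at 5.81, 63.9 and 29.0 CPM at E13.5, against 56.6, 307 and 127 CPM at E11.5. The other 2 of the 9 carry ribosomal or clone-type names and are not named here.

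**Figure D5:**
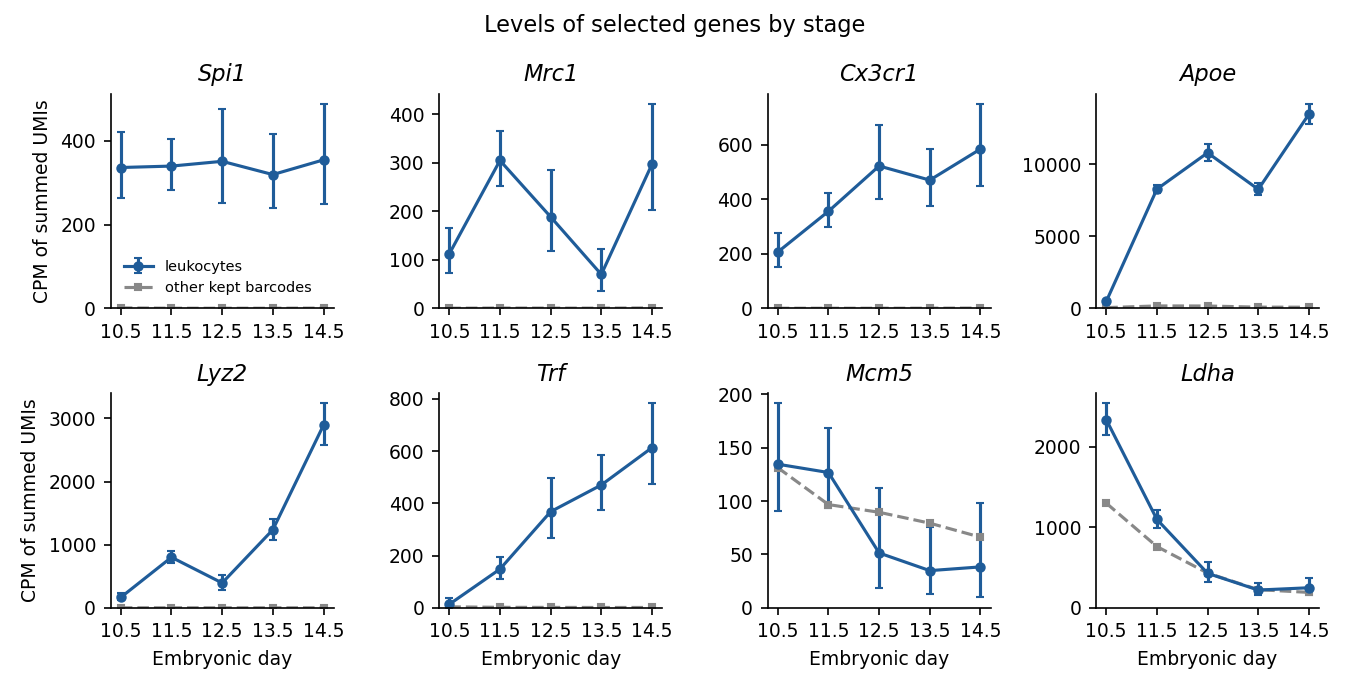
CPM of summed UMIs (y axis, from 0, own scale for each gene) of 8 genes by embryonic day (x axis), in leukocytes (blue circles, bars are exact 95% Poisson intervals) and in the other kept barcodes (grey squares). Spi1 lies between 319 and 355 CPM at every stage, Trf is highest at E14.5 with 613 CPM, and Ldha stands at 221 CPM at E13.5 and 2336 CPM at E10.5. The leukocyte sums include barcodes with markers of another cell type, whose share of UMIs differs between stages.

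Cell cycle and glycolysis genes were lower at the later stages in leukocytes and in the cells around them. The S phase list stood at 1919, 1640, 779, 529 and 776 CPM in leukocytes in order of stage, against 1957, 1356, 1228, 899 and 647 CPM in the others. Of 13 S phase genes tested between E13.5 and E11.5, 0 had a positive log2 ratio. At least 4-fold lower were 5 of them (Mcm2, Pcna, Rrm1, Rrm2 and Gins2), against 5.53% of all genes. Their median was -1.86, against -0.34 over all genes. In the other kept barcodes 13 genes of the list, not all the same ones, had a median of -0.81, with 0 at least 4-fold lower. Thinned to 3000 UMIs each, 14 of 15 leukocytes for E10.5 held at least 3 G2/M genes (93.3%, 68.1% to 99.8%), 10 of 21 for E11.5, 3 of 10 for E12.5, 5 of 16 for E13.5 and 1 of 13 for E14.5 (7.69%, 0.195% to 36.0%). The other kept barcodes gave 67.7%, 37.6%, 35.0%, 35.0% and 30.3% in the same way. Without thinning the leukocytes gave 100%, 65.2%, 36.4%, 45.0% and 38.9%. Over all stages 31 of 75 leukocytes deep enough to thin held them (41.3%, 30.1% to 53.3%), against 41.0% of the other kept barcodes, and 13 leukocytes were too shallow to count.

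The glycolysis and hypoxia list stood at 11655, 7750, 3520, 2980 and 3287 CPM in leukocytes, against 9124, 7371, 4660, 2670 and 2094 CPM in the others. Aldoa, a glycolytic aldolase gene, stood at 441 CPM at E13.5 and 1475 CPM at E10.5 in leukocytes. Between E13.5 and E11.5, 2 of the 9 genes tested were at least 4-fold lower in leukocytes (Ldha and Pgk1), against 5.53% of all genes. In the other kept barcodes 0 of the 9 tested there were, with a median of -1.52, against -1.56 in leukocytes. Cholesterol synthesis genes stood below those of the other cells at all 5 stages, with 2 of 17 tested and 0 at least 4-fold lower. The list had 332, 437, 334, 517 and 144 CPM in leukocytes, against 985, 637, 571, 561 and 401 CPM in the others.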

How the data were processed

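The data are raw UMI counts per gene and cell barcode from 6 Chromium single-cell libraries, deposited by the authors as made with Cell Ranger 3.0.2 on mm10, per the submitters' processing notes; how cells were called was not given in the sources used. Computed from them here, with Python 3.11.15, numpy 2.4.6, scipy 1.17.1 and pandas 2.3.3, were barcode filters (500 genes, 10% mitochondrial UMIs), the 7-gene rule, and sums of counts over cells in each library, scaled to CPM. With 1 library a stage no test between stages was possible, and leukocytes against other barcodes were not tested because the cells were chosen by the values compared. Intervals are exact 95% Poisson, binomial or conditional binomial intervals for counting error. A gene was called at a 4-fold difference with at least 50 CPM in either sum, and a count of 0 was replaced by 3 in folds. The comparison script was tested on simulated data. Doublets were kept, and Scrublet (scanpy 1.11.5) was run as an alternative.

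Genes were named by ratio (15 up and 5 down, 12 each way between stages), leaving out the rule genes and mitochondrial, ribosomal, haemoglobin and clone-type names, and from 35 lists by call and level. The cells and lists were chosen with earlier results of these data known. Marker counts, thresholds, doublet removal, pooling, scaling and stages were varied. Promoter sequences come from RefSeq and coordinates from GENCODE on GRCm38.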

Additional observations from a re-analysis of the deposited data

Results flagged for a closer look

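Leukocyte rule genes had UMIs in the library of stem cell-derived cells, where 0 of 7519 kept barcodes met the rule and which entered no comparison. Fcer1g had 121 UMIs there, over 21 barcodes, and Csf1r had 5 UMIs over 5 barcodes. The other 5 rule genes, Tyrobp, C1qa, C1qb, C1qc and Ptprc, had 0 UMIs in that library. Both values are above the 3 counts that a count of 0 allows.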

How the results depend on the processing

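Of the main counts and shares, 154 values under the alternatives stayed close to the value reported and 25 moved. With 2 of 7 rule genes, 65 genes were lower in leukocytes and 25 leukocytes held other cell type markers. Removing the highest doublet scores gave 171 lower genes. Removing members with markers of another cell type gave 265 lower genes, left 7 leukocytes at E12.5 and 0 with such markers. A 20 CPM minimum gave 438 higher and 293 lower genes in leukocytes, and 413 higher and 357 lower at E13.5. Equal weight per cell gave 186 lower genes. Centring on the median gave 175 higher and 92 lower genes at E13.5. With 2 markers of a list, 22 leukocytes held monocyte markers and 39 those of another cell type; at 3000 UMIs 1 held monocyte markers. The E10.5 share with G2/M genes was 66.7% at 1500 UMIs, 100% at 5000 UMIs and 100% with 2 genes, and the share over all stages was 58.6% at 5000 UMIs. Alternatives chosen after seeing the data gave 298 higher and 414 lower genes with E10.5 in place of E11.5, 118 lower with a floor of 3 counts for every gene, and 5 higher and 9 lower among leukocyte-enriched genes. Reversed log2 ratios were 0.29 for Actc1 without the E10.5 library, and, with E14.5 in place of E13.5, 0.24 for Ifi202b, 0.19 for Hcls1 and 2.14 for Lyve1. The causes were not tested. Log2 ratios of named genes were labelled moved in 79 values between stages and 6 against the other cells, and close in 722 and 353. The 79 include values of Trbc2 and Lyve1, which had 0 UMIs at E13.5. The open lower limit of their intervals was recorded with the wrong sign, so they were labelled moved even where the ratio was unchanged. A second latest or earliest library with at least 20 members does not exist, so that alternative gave no value. No paired analysis was possible because each stage has 1 library; leukocytes and other barcodes do share the 5 libraries, but the cells were chosen by the values compared, so no test was made.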
